A study of Bos taurus with 12 samples.

Results

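DLK1, CDKN1C and GRB10 are growth regulators expressed mainly from one parental copy of the gene in at least some mammals and tissues. Whether this holds in the blood of these cows was not tested. All rows that the deposited tables assign to these 3 symbols were taken, which gave 68 single CpG cytosines (sites) and 1 window of 500 bases (tile), or 69 regions of the 197502 listed in all. The genes were picked because most of their listed sites were higher in one group of cows, so the differences below describe that choice and are given without a test. Imprinting means that a gene is read from the maternal or the paternal copy according to methylation laid down in the germ line. DLK1 encodes a membrane protein with EGF-like repeats that restrains fat cell differentiation and is expressed from the paternal copy. CDKN1C encodes p57, an inhibitor of cyclin-dependent kinases expressed from the maternal copy, and GRB10 encodes an adaptor that dampens signalling from the insulin and IGF receptors, imprinted in the mouse with an expressed copy that depends on the tissue. Where methylation sits on one parental copy only, a mixture of the 2 copies reads near the middle of the scale.

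Enzymatic methylation sequencing was run on whole blood DNA of 12 dairy cows (Bos taurus) raised under the same conditions on one farm. The Mastitis Susceptible Group (MSG, 6 cows) was culled within 1 year of sampling for complications of mastitis that were not known when blood was drawn, and the Mastitis Resilient Group (MRG, 6 cows) was still in the herd and of similar age distribution. The comparison asks whether blood methylation differed ahead of the disease. No treatment was given, age in years, breed, parity and blood cell counts were not stated, and the label blood could not be checked against cell markers in methylation data, so a difference in blood cell mixture and a difference within cells cannot be told apart. Replicate numbers only name the cows of a group. Per cow, the mean over all listed sites ran from 53.9% to 55.1% in MSG and from 51.8% to 54.0% in MRG. A cow lacked a value at 606 to 8751 of the listed sites, and read depth was not used.

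The 68 sites stood for 55 CpGs, 13 of them listed on both strands. Of the 68, 57 were higher in MSG (83.8%) and 11 lower, beside 52.7% higher among all 196275 listed sites. DLK1 had 20 of 25 sites higher, CDKN1C 18 of 20 and GRB10 19 of 23. At 6 of the 68 sites the cows of the groups did not overlap, all of them higher in MSG, beside 2.36% of all listed sites and 1.39% when only those higher in MSG are counted. Of these sites 4 belonged to DLK1, 2 to CDKN1C and 0 to GRB10. None of the 68 passed limma's test after adjustment over all listed sites, where 0 of 196275 did (0%). An unadjusted limma p under 0.05 was reached by 41 of the 68, against 51.9% of all sites. The exact permutation test also passed 0 of the 196275 sites after adjustment, with 69607 at an unadjusted p under 0.05. Nothing is read from these shares, since the tables and the genes were both chosen on this contrast.

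None of the 68 sites lay in a promoter. Introns held 48, of which 18 DLK1 sites and 16 CDKN1C sites were in introns of another gene, and distal intergenic sequence held 20. All sites of DLK1 and CDKN1C lay outside the gene itself, while 14 of 23 GRB10 sites lay inside it. A cow was listed at exactly 0 at 20% of DLK1 sites, 30% of CDKN1C sites and 73.9% of GRB10 sites, against 78.3% of all listed sites. The median absolute difference between the groups was 33.8 points over the 68 sites and 32.7 points over all listed sites.

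**Figure D1:**
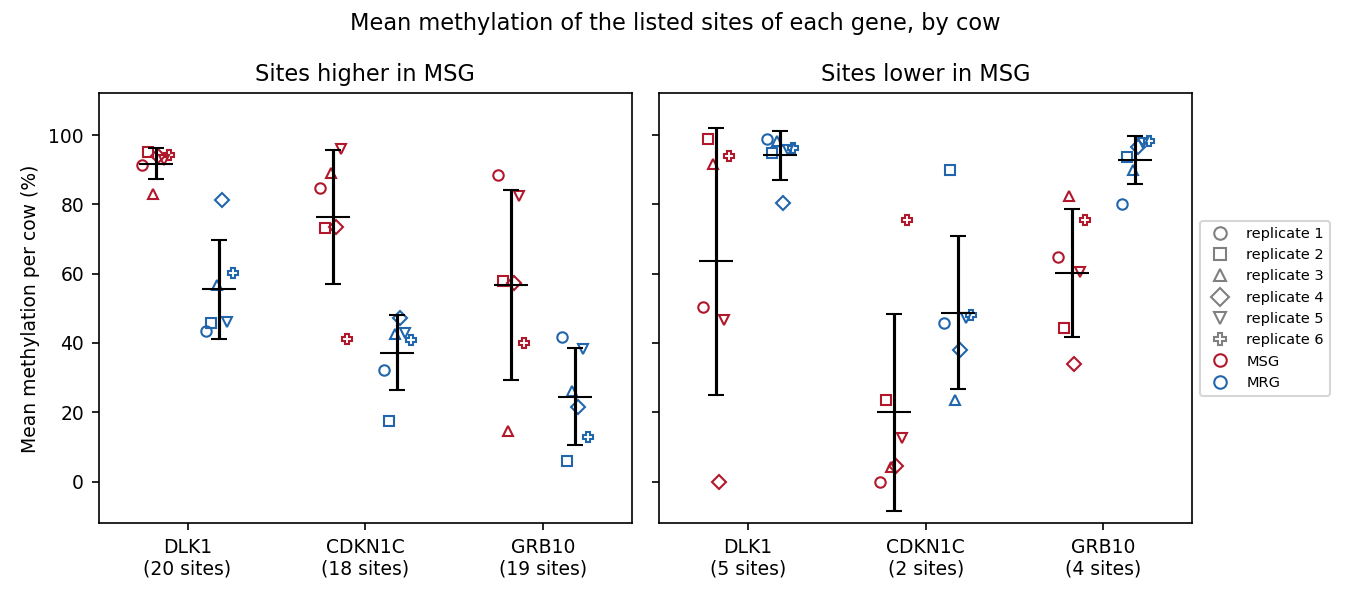
Mean methylation per cow (percent, vertical axis) over the listed sites of DLK1, CDKN1C and GRB10 that were higher (left) or lower (right) in MSG. Each symbol is a cow, red for MSG and blue for MRG, with the group mean and SD in black (n = 6 each). For DLK1 the lowest MSG cow, at 83.0%, stood just above the highest MRG cow, at 81.2%, while the groups overlapped for CDKN1C and GRB10.

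DLK1 showed high, even methylation in MSG and middle values in most MRG cows. The gene model runs from 65626343 to 65634828 on chromosome 21 (ARS-UCD1.2, + strand), and its sites lay from 65548757 to 65659583, the nearest 13.2 kb and the farthest 77.6 kb from a transcript start. Of its sites, 18 lay in intron 2 of 2 of ENSBTAG00000052188, a gene without a symbol in the files that spans 65467970 to 65596776 upstream of DLK1. Over the 20 sites higher in MSG, the MSG cows stood at 91.5%, 95.05%, 83.0%, 93.9%, 92.9% and 94.4% (replicates 1 to 6). The MRG cows stood at 43.3%, 45.7%, 56.8%, 81.2%, 46.0% and 60.3%. The means were 91.8% ± 4.46 and 55.5% ± 14.3 (SD, n = 6 each), a difference of 36.2 points. MSG cows were thus close together, and MRG replicate 4 came nearest to them.

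The contrast lay between values near the top of the scale and values in its middle, with no cow at 0. Of the 118 MSG values at these sites, 88.1% were above 80%, and of the 117 MRG values 78.6% were between 20% and 80%. Among all listed sites higher in MSG those shares were 53.6% above 80% in MSG and 45.3% between 20% and 80% in MRG. This is not a like comparison, because 78.3% of all listed sites, of both directions, had a cow at 0. Every listed site had also passed the authors' threshold on the difference. With MSG near the top of the scale, lower MRG values at these DLK1 sites follow in part from that choice. MRG replicates 2 and 5 were between 20% and 80% at all 20 sites. MRG replicate 4 was above 80% at 13 of 20 sites, and MRG replicates 3 and 6 at 4 of 18 and 5 of 19.

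At single DLK1 sites the cows that stood with MSG changed with position. At the minus strand site 65580927, 45.4 kb upstream, the MSG cows read 85.7%, 100%, 78.9%, 100%, 85.7% and 100% and the MRG cows 58.8%, 40%, 50%, 37.5%, 42.9% and 57.1%. The groups did not overlap there, and all 6 MRG cows were in the middle range, replicate 4 included. At the plus strand site 65570902, 55.4 kb upstream, the MSG cows read 100%, 91.7%, 89.5%, 100%, 94.1% and 95% and the MRG cows 43.8%, 50%, 40%, 84.6%, 25% and 64.7%. Here MRG replicate 4 was the highest of its group and still below the lowest MSG cow. The minus strand site 65559163 (78.9% ± 8.77 against 39.4% ± 19.4) and the plus strand site 65608932 (93.7% ± 5.22 with n = 6 against 63.0% ± 9.99 with n = 5) were the other sites without overlap.

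Averaged over the sites upstream and over those downstream of DLK1, different MRG cows stood near MSG. Over the 17 higher sites upstream, MRG cows stood between 45.1% and 78.9% with a mean of 54.0% ± 12.8, and MSG cows at 91.5% ± 4.81. Over the 3 higher sites downstream, at 65646562 and at the CpG of 65659582, MSG stood at 93.6% ± 4.24 and MRG at 65.1% ± 28.1, a spread over fewer sites that is not comparable with the one upstream, where MRG reached an SD of 31.2 at the single site 65556925. Over the 3 downstream sites, MRG replicates 3, 4 and 6 averaged 83.8%, 93.9% and 93.2%. MRG replicates 1, 2 and 5 averaged 33.3%, 41.1% and 45.4% over the same sites. MRG replicates 3 and 6 were thus near or within the MSG range of 89.3% to 100% downstream, and averaged 53.4% and 54.1% upstream. Single upstream sites differed from these averages. MRG replicate 3 read 100% at 65556925 and MRG replicate 6 read 100% at 65557395. Over all higher sites they were above 80% at 4 of 18 and 5 of 19, so the contrast holds for averages over 17 and 3 sites only.

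The 5 DLK1 sites lower in MSG followed other cows. MSG replicate 4 was at exactly 0 at all 5 of them, from 65548757 to 65639681, although it averaged 93.9% over the sites higher in MSG. MSG replicates 1 and 5 averaged 50.5% and 46.6% there, MSG replicates 2, 3 and 6 averaged 98.8%, 91.5% and 93.9%, and MRG cows stood between 80.3% and 99.0%. MSG averaged 63.6% ± 38.6 against 94.1% ± 6.94 for MRG (SD, n = 6 each). A cytosine that is a thymine in a cow's own DNA reads as unmethylated, and its part in these values was not tested. These 5 sites were interspersed along the chromosome with sites of the other direction. The sites at 65570371 (59.8% ± 40.3 against 97.3% ± 5.96, n = 6 and 5) and 65570902, which is higher in MSG, are both within 1 run of sites spaced by less than 2 kb.

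**Figure D2:**
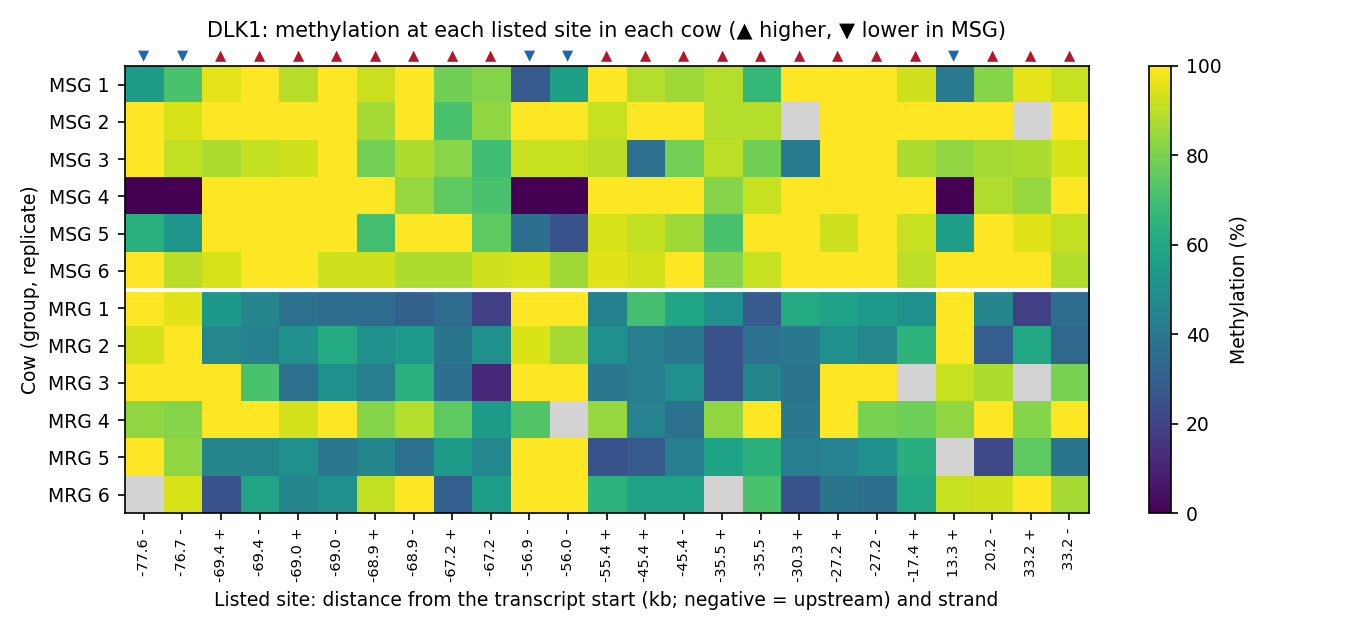
Percent methylation (colour) of each cow (rows, MSG above the white line, MRG below) at the 25 listed DLK1 sites, ordered along the chromosome and marked with their distance in kb from the first transcript start and their strand. Grey marks a missing value and triangles mark the direction. At the 20 sites higher in MSG, 88.1% of MSG values are above 80% and 78.6% of MRG values are between 20% and 80%, with MRG replicate 4 above 80% at 13 of them. MSG replicate 4 is at 0 at the 5 others.

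CDKN1C had its sites in 2 places, one just beyond the gene and one in a neighbouring gene. The model of CDKN1C runs from 48728420 to 48730918 on chromosome 29 (+ strand). Of its sites, 4 lay at 48737438 to 48738106, between 9.02 kb and 9.69 kb past the start. The other 16, at 48813044 to 48815182 and 84.6 kb to 86.8 kb away, lay in intron 14 of 14 of the gene ENSBTAG00000010986, which the files name KCNQ1 (48759236 to 49139386, - strand). KCNQ1 encodes a potassium channel subunit. In human and mouse, an intron of this gene holds the imprinting control region of the cluster that includes CDKN1C. Whether the 16 sites lie in or near the matching region in cattle was not tested.

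Over the 18 CDKN1C sites higher in MSG, the MSG cows stood at 84.8%, 73.2%, 89.0%, 73.5%, 95.9% and 41.1%. The MRG cows stood at 32.2%, 17.5%, 42.5%, 47.3%, 43.0% and 40.8%. The means were 76.3% ± 19.4 and 37.2% ± 10.9 (SD, n = 6 each), a difference of 39.0 points. MSG replicate 6 lay within the range of MRG, and without it the difference was 46.1 points. The lowest cow was MRG replicate 2, which was at exactly 0 at 4 of the 18 sites and below 20% at 9.

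All 16 sites in the KCNQ1 intron were higher in MSG, at 76.5% ± 20.4 against 38.3% ± 11.6. They belonged to 15 CpGs, and 15 of the 16 sites were on the minus strand. The widest difference of all 68 sites was there, at the minus strand cytosine 48815182, where the MSG cows read 100%, 100%, 100%, 100%, 94.7% and 50% and the MRG cows 27.3%, 0%, 50%, 14.3%, 36.8% and 53.8%. The means were 90.8% ± 20.1 and 30.4% ± 20.8 (SD, n = 6 each), a difference of 60.4 points, with MSG replicate 6 below the highest MRG cow. The other strand of the same CpG, at 48815181, stood at 93.3% ± 16.3 and 38.0% ± 25.8 (n = 6 and 5).

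The tile listed for these genes lay in the same intron. It covered 48813001 to 48813500 and held 11 listed sites, all on the minus strand within 105 bases. As a tile, the MSG cows read 72.5%, 66.3%, 68.2%, 59.9%, 72.6% and 42.2%, and the MRG cows read 37.8%, 17.7%, 32.5%, 47.3%, 31.3% and 52.4%. The means were 63.6% ± 11.5 and 36.5% ± 12.4 (SD, n = 6 each). Averaged over the 11 listed sites instead, they were 70.8% ± 21.8 and 34.7% ± 11.1. The tile, which also takes in cytosines that are not listed, thus differed by 27.1 points where its listed sites differed by 36.1 points, and in both MSG replicate 6 was the lowest MSG cow. It was among the 73.3% of tiles that passed limma's test and not among the 6.03% of tiles without overlap between the groups, which describes a choice made on the same cows.

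Beside CDKN1C itself, a pair of CpGs less than 1 kb apart pointed in opposite directions. At the CpG of 48738105, averaged over its strands, the MSG cows read 68.3%, 72.8%, 88.3%, 91.7%, 79.0% and 46.9% and the MRG cows 29.2%, 18.2%, 33.3%, 33.3%, 32.1% and 21.0%. No cow of one group reached the other. At the CpG of 48737438 the MSG cows read 0%, 23.6%, 4.17%, 4.55%, 12.5% and 75.6% and the MRG cows 45.8%, 90%, 23.5%, 38.1%, 47.2% and 48.1%. MSG replicate 6 and MRG replicate 2, the lowest cows of their groups over the higher sites, were the highest of their groups at this CpG.

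**Figure D3:**
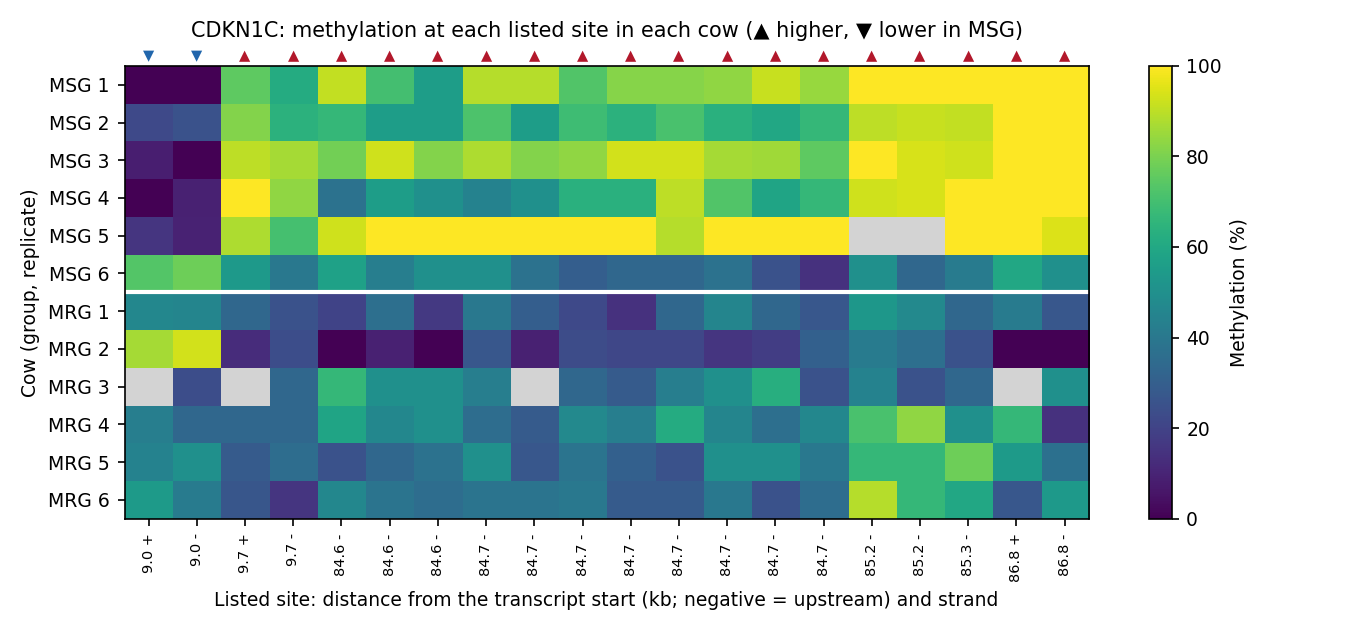
Percent methylation (colour) of each cow (rows, MSG above the white line, MRG below) at the 20 listed CDKN1C sites in chromosome order, marked with distance in kb from the transcript start and strand. Grey marks a missing value and triangles mark the direction. MSG replicates 1 to 5 are higher than the MRG rows at most of the 18 sites higher in MSG, and MSG replicate 6 averages 41.1%, within the range of MRG, although it is above all MRG cows at the CpG of 48738105.

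GRB10 differed from the other genes in that values ran over the whole scale in both groups. Its gene model runs from 5106065 to 5327013 on chromosome 4 (+ strand), and its sites lay from 4895269 to 5208767, up to 211 kb upstream of the start. The 14 sites inside the gene were in introns 1, 2 and 3 of 17. Over the 19 sites higher in MSG, the MSG cows stood at 88.5%, 57.8%, 14.5%, 57.3%, 82.6% and 40.0%, and the MRG cows at 41.6%, 5.87%, 26.2%, 21.5%, 38.4% and 13.0%. The means were 56.8% ± 27.3 and 24.4% ± 13.99 (SD, n = 6 each), a difference of 32.4 points. The groups overlapped, and MSG replicate 3 was below 4 of the 6 MRG cows.

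Most GRB10 sites shared the cows that read 0 and the cows that read high. At 16 of the 19 sites a cow was at exactly 0. Over these, MSG replicates 1 and 5 averaged 87.9% and 82.1%, MSG replicates 2, 4 and 6 averaged 52.6%, 51.2% and 35.1%, and MSG replicate 3 was at 0 at all 16. In MRG, replicate 6 was likewise at 0 at all 16, replicate 2 averaged 2.39%, and the others stood between 18.5% and 36.3%. For example, at the plus strand site 5204621 in intron 3 the MSG cows read 87.5%, 57.1%, 0%, 54.5%, 85.7% and 63.6% and the MRG cows 33.3%, 0%, 18.2%, 25%, 18.2% and 0%. A thymine in a cow's own DNA at the cytosine is read as unmethylated. Its part in these values, and in the CDKN1C values at 0, was not tested.

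The remaining GRB10 sites did not share this order. The 3 higher sites without a cow at 0 lay within 1836 bases at 5065872 to 5067707, between 38.4 kb and 40.2 kb upstream. The groups stood at 84.4% ± 9.31 (MSG) and 59.4% ± 29.2 (MRG). MSG replicate 3 read 91.8% and MRG replicate 6 read 82.2%, while MRG replicates 2, 3 and 4 read 24.4%, 37.7% and 37.3%. At the 4 sites lower in MSG, MRG cows stood between 80% and 98.2% and MSG cows between 33.8% and 82.3%, with means of 92.7% ± 6.96 and 60.2% ± 18.4. At the minus strand site 5138858, MSG replicates 1 and 5 were at 0, the cows that were highest over the sites of the other direction.

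**Figure D4:**
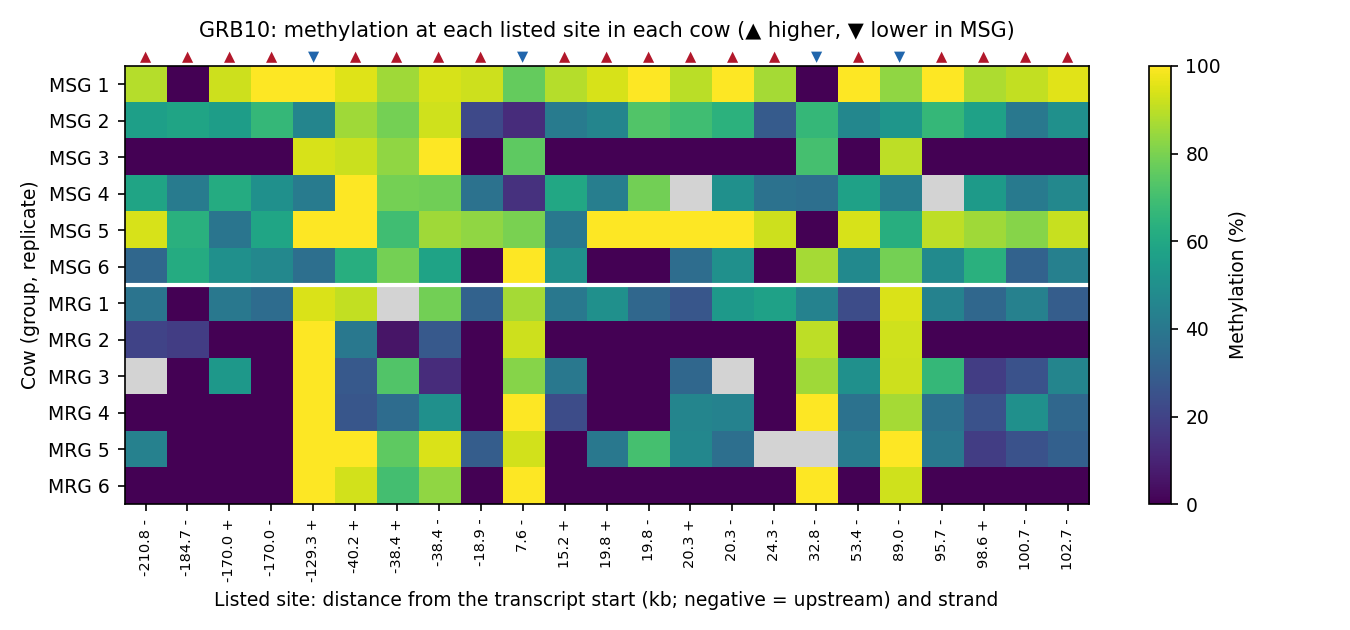
Percent methylation (colour) of each cow (rows, MSG above the white line, MRG below) at the 23 listed GRB10 sites in chromosome order, marked with distance in kb from the first transcript start and strand. Grey marks a missing value and triangles mark the direction. MSG replicate 3 and MRG replicate 6 are at 0 at 16 of the 19 sites higher in MSG, and MSG replicates 1 and 5 are above 80% at 18 and 14 of the 19.

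The strands of a CpG were compared where both were listed. For the 13 CpGs listed on both strands, both cytosines had the same direction in all 13, and the median absolute difference between strands in a cow was 7.14 points, with 10% of comparisons above 21.7 points and a largest difference of 53.3 points. Over the 43073 such CpGs in the whole table the median was 5.56 points and the direction was also the same in all, each strand having passed the same filter on the difference. The strands of 1 CpG in 1 cow share the animal, not the reads. The share of CpGs listed on both strands was 47.1% for DLK1, 17.6% for CDKN1C, 9.52% for GRB10 and 28.1% in all.

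The 3 genes did not show a common order of cows. MSG replicate 3, the lowest MSG cow for GRB10 at 14.5%, stood at 89.0% for CDKN1C and lowest for DLK1 at 83.0%. MSG replicate 6, the lowest for CDKN1C at 41.1%, stood at 94.4% for DLK1. MRG replicate 4, the highest MRG cow for DLK1 and CDKN1C, stood at 21.5% for GRB10, below 3 other MRG cows. In contrast, MRG replicate 2 was low in its group for each gene, at 45.7% (DLK1), 17.5% (CDKN1C) and 5.87% (GRB10). The mean absolute difference over the 12 cows was 18.4 points between DLK1 and CDKN1C, 18.3 points between CDKN1C and GRB10, and 33.1 points between DLK1 and GRB10. Between a member and each of the 1734 genes compared, the median was 22.3 points for DLK1, 21.3 for CDKN1C and 27.3 for GRB10. Among those genes, CDKN1C ranked 92 and DLK1 1351 in likeness to GRB10. For CDKN1C the ranks were 489 (DLK1) and 474 (GRB10), and for DLK1 587 (CDKN1C) and 1382 (GRB10). This measure reflects the level of methylation as well as the order of cows.

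Genes whose cows looked most like those of a member were chosen as the 3 with the smallest mean absolute difference over the 12 cows, among genes with at least 10 sites higher in MSG. For CDKN1C all 3 were also on chromosome 29. These were CCND1, which encodes a cyclin of the G1 phase (6.75 points), the tetraspanin gene TSPAN32 (8.08 points) and the leukocyte protein gene LSP1 (8.32 points). In each of them MSG replicate 6 was the lowest MSG cow, at 34.6%, 38.4% and 50.2%. For GRB10 the nearest were COBL, an actin nucleator gene (9.75 points), and VWC2, a secreted BMP antagonist gene (11.1 points), both on chromosome 4, and ETFDH on chromosome 17, which encodes a mitochondrial electron transfer enzyme (11.4 points). MSG replicate 3 and MRG replicate 6 were at 0 in COBL and VWC2. For DLK1 the nearest lay on other chromosomes: the transcription factor gene GRHL2 (6.15 points), the splicing factor gene CDC40 (6.38 points) and MGAT5, a glycosyltransferase gene (6.86 points). The MSG cows stood between 89.9% and 93.9% in GRHL2, 82.5% and 91.2% in CDC40, and 93.5% and 95.6% in MGAT5. The MRG cows stood between 40.2% and 89.4%, 38.6% and 87.1%, and 36.5% and 92.5%. GRHL2, CDC40 and MGAT5 are outside the list of imprinted genes used below. Their high MSG values beside lower MRG values follow from how the sites and the genes were chosen.

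The surroundings of CDKN1C held a larger share of sites higher in MSG than chromosome 29 as a whole. Within 500 kb of its start, 92 of the 122 sites assigned to other genes were higher (75.4%), against 58.7% of the chromosome's 5423 sites. Of these, 35 sites belonged to 7 genes of the imprinted list, and 28 of them were higher. SLC22A18, a transporter gene next to CDKN1C, had 8 of 8 sites higher, and over them the MSG cows stood at 89.2%, 98.8%, 95.1%, 92.1%, 95.1% and 51.6% and the MRG cows between 26.8% and 55.4%. NAP1L4, which encodes a histone chaperone, had 5 of 5 higher (85.6% ± 21.1 against 48.0% ± 6.44, with MSG replicate 6 at 44.4%). PHLDA2, a gene that restrains placental growth, had 2 of 2 higher (80.8% ± 14.9 against 33.2% ± 16.6, with MSG replicate 6 at 51.8%). In these 3 genes, as in CDKN1C, MSG replicate 6 was the MSG cow nearest to MRG. CD81 and TSSC4 had 3 of 3 and 2 of 3 higher, while OSBPL5, a lipid transfer protein gene, had 4 of 6 lower. KCNQ1 itself had 6 of 8 assigned sites higher, 395 kb from CDKN1C by the median position of its sites. Over these 6 sites, without the 2 lower ones, it stood at 44.8% ± 14.5 against 14.1% ± 11.1, and there MSG replicate 6 was above 3 other MSG cows at 51.9%.

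Around GRB10, 23 of 42 sites of other genes within 500 kb were higher in MSG (54.8%), against 59.9% of chromosome 4. The neighbours COBL and DDC, the latter encoding the decarboxylase that makes dopamine and serotonin, had 15 of 25 and 7 of 8 sites higher in this window. Over their higher sites MSG replicate 1 stood at 91.0% and 94.2%, while MSG replicate 3 and MRG replicate 6 were at 0 in both. Around DLK1, 55 of 91 sites of other genes were higher (60.4%, against 51.8% of chromosome 21). The transcription factor gene YY1, 469 kb upstream, had 14 of 14 sites higher, at 88.0% ± 8.08 against 56.3% ± 18.8, with MRG replicate 4 at 84.6%. BEGAIN, the gene of the imprinted list in this window, had 1 site, which was higher. That list held no microRNA genes, so those named next were not counted in it, whether imprinted or not. Other neighbours went the other way or were mixed. The microRNA gene MIR656 had 11 of 12 sites lower, MIR453 its 1 site, the mitochondrial carrier genes SLC25A29 and SLC25A47 4 of 4 and 1 of 1, while MIR493 and MIR370 had 2 of 2 and 1 of 1 higher.

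**Figure D5:**
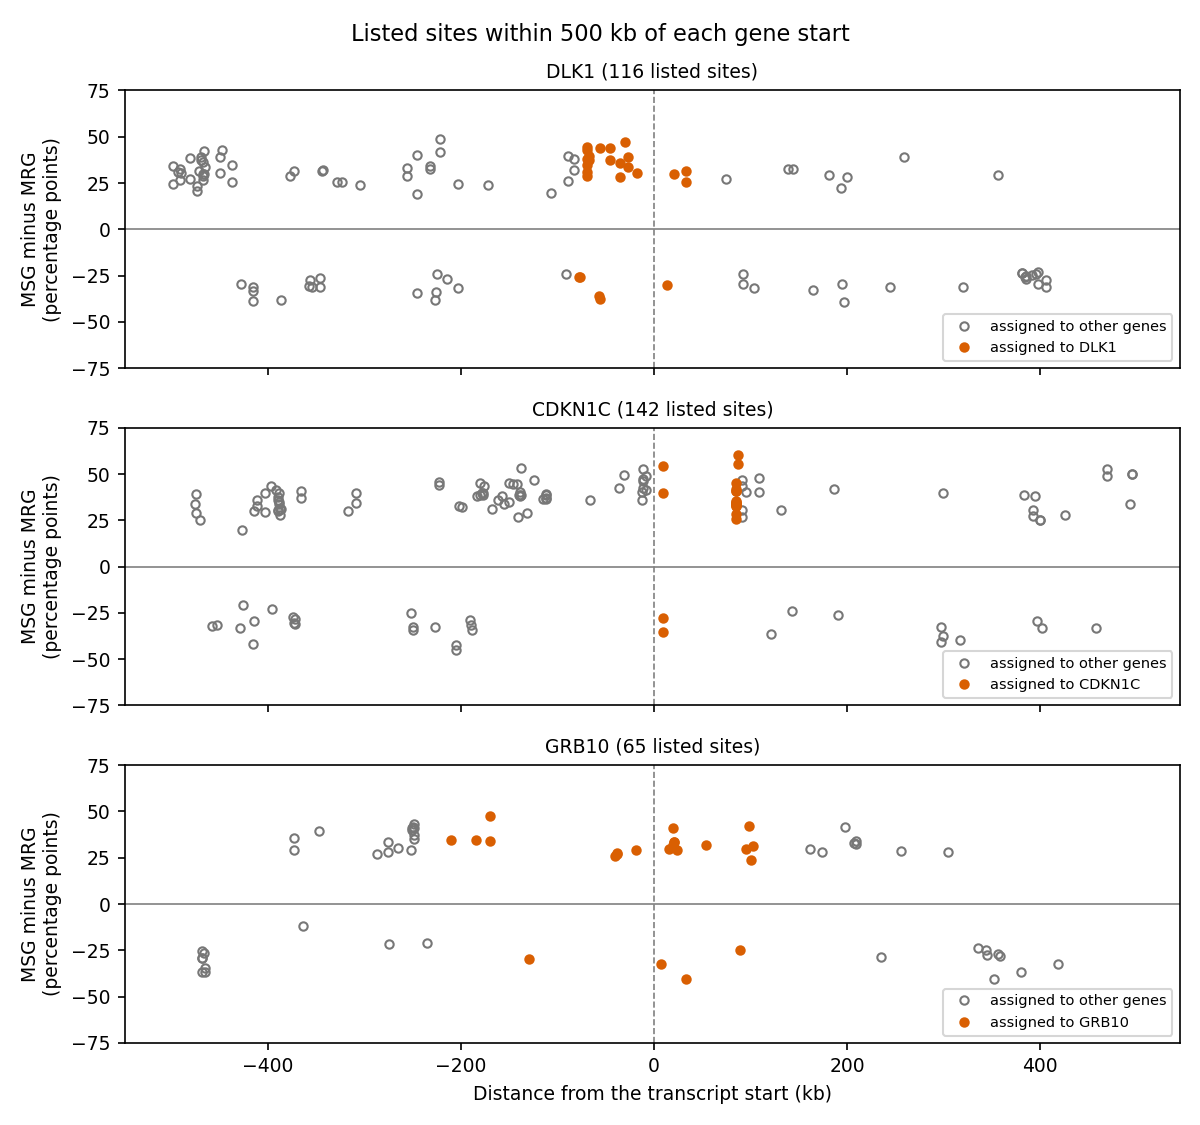
Difference in percent methylation between group means (MSG minus MRG, percentage points) at each listed site within 500 kb of the first transcript start of DLK1, CDKN1C and GRB10, against distance from that start in kb. Orange points are assigned to the gene and open grey points to other genes, and the empty band around 0 follows from the authors' threshold. In the window of CDKN1C 110 of 142 sites lie above 0, in that of DLK1 75 of 116 and in that of GRB10 42 of 65.

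Other genes of the imprinted list, whose imprinting was not tested in these cows, had sites of both directions. Without DLK1, CDKN1C and GRB10, 41 of 67 imprinted genes had 395 sites, of which 240 were higher in MSG (60.8%) with a median difference of 28.6 points. All listed sites had 52.7% higher and a median of 22.7 points. Here and in the lists below the median keeps the sign of each site. It therefore follows the share of sites higher rather than the size of the difference. By gene, 24 were mostly higher, 13 mostly lower and 4 even. Those with the most sites were CALCR, the calcitonin receptor gene (31 of 42 higher), ASB4 (33 of 35), COBL (16 of 30), TFPI2, a protease inhibitor gene (24 of 26), all on chromosome 4, and TSPAN32 (15 of 24). The share of 60.8% leans on CALCR, ASB4 and TFPI2, and it is not a trait spread evenly over the list. ASB4, a ubiquitin ligase adaptor gene, stood at 74.8% ± 15.4 in MSG and 43.1% ± 26.1 in MRG over all its sites and held the other tile of the list. Among imprinted sites with no cow at 0, again without DLK1, CDKN1C and GRB10, 55 of 108 were higher, beside 24459 of 42667 of all listed sites with no cow at 0.

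Lists of the pathways in which the 3 genes act also held sites of both directions, and differences between lists were not tested. In insulin and IGF signalling without GRB10, 14 of 30 genes had 82 sites, 51 of them higher (62.2%, median 25.3 points), but 12 of 28 where no cow was at 0. PIK3R1, the regulatory subunit of PI3-kinase, had 23 of 29 sites higher, while all 10 sites of PIK3CA, the catalytic subunit, were lower (51.9% ± 21.3 against 88.9% ± 18.1). The growth factor gene IGF2 had 6 of 9 sites higher, its receptor gene IGF1R 3 of 8, and the GRB10 relative GRB7 all 7. Among CDK inhibitors and G1 regulators without CDKN1C, 9 of 20 genes had 97 sites, of which 67 were higher (69.1%, median 27.1 points), with 32 of 40 where no cow was at 0. The cyclin genes CCND2, CCND1 and CCNE2 had 32 of 46, 13 of 16 and 6 of 8 sites higher, and the inhibitor gene CDKN2C and the RB relative RBL2 were even with 6 of 12 and 3 of 6. Of the Delta and Notch family without DLK1, 15 of 28 genes had 104 sites, and 65 were lower in MSG, with 37.5% higher and a median of -25.9 points, and 6 of 21 higher where no cow was at 0. The ligand gene DLL1 had all 15 sites lower (34.8% ± 26.4 against 70.8% ± 21.6) and the coactivator gene MAML3 33 of 35, while the target gene HEY1 had 10 of 11 higher and HES1 6 of 14. Counted by gene the order was the reverse, with 10 of these genes mostly higher, 4 mostly lower and 1 even.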

How the data were processed

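Values came from 2 deposited tables of percent methylation per cow, 1 of CpG cytosines by strand and 1 of tiles of 500 bases. Per the submitters' processing notes, fastp 0.23.1, Bismark, DRAGEN and ChIPseeker 1.32.1 were used with genome build ARS-UCD1.2; their roles and the differential test are not given in the sources used here. Each deposited q-value and p-value and the authors' difference had selected the rows, at 25 points or more and a q-value of 0.01 or less among sites, per the file headers and values. For tiles, 36 columns of coverage and read counts, named by number only, were not used, so depth is unknown and precision is the spread between cows. Direction is that of the authors' deposited difference; the annotation, distances and gene models are the authors'. Methylated and hydroxymethylated cytosines were not distinguished, per the labels' protocols.

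Per gene, sites of one direction were averaged in each cow, missing values left out. limma 3.58.1 (R 4.3.3) tested MSG against MRG on percent methylation over all rows of each table, with Benjamini-Hochberg adjustment and a threshold of 0.05, and gave the background; it was tested on simulated data. Runs join sites at most 2 kb apart. Members and lists were chosen with earlier results of these data known. Named list genes are the 5 with the most sites per list, of which 1 is not reported here. No age, cell count or batch was given. Each value is 1 cow, so n counts cows.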

Additional observations from a re-analysis of the deposited data

Results flagged for a closer look

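In 4 of the 16 group means examined per gene and direction, 1 cow stood apart from the other 5 by Dixon's test, which chance does for about 1 in 20 groups; sites of one gene and both readings of the CDKN1C tile share cows. Over the DLK1 sites higher in MSG, MSG replicate 3 was lowest at 83.0% against 91.5% for the next cow. Over the DLK1 sites lower in MSG, MRG replicate 4 was lowest at 80.3% against 94.9%. At the CDKN1C CpG lower in MSG, MSG replicate 6 was highest at 75.6% against 23.6%, and MRG replicate 2 was highest at 90% against 48.1%.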

How the results depend on the processing

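No paired analysis was possible because the replicate numbers only name cows and pair none. The sites averaged were chosen as higher in MSG on these cows, so the direction of their mean is set by that choice and shows no stability. Leaving out each cow in turn gave 33.8 to 41.4 points for DLK1, 35.1 to 46.1 for CDKN1C and 26.0 to 40.8 for GRB10, and the counts of 20, 18 and 19 sites, fixed by the same choice, did not move. Averaging all listed sites of DLK1, of both directions, gave 23.2 points in place of 36.2, and 21.1 in place of 32.4 for GRB10, since sites of opposite sign enter. Counting each CpG once left 12 DLK1 sites higher. Leaving out sites with a cow at 0 left 3 GRB10 sites higher in place of 19, with a difference of 25.03 points, and the cause was not tested. Counting each run of sites once, an alternative chosen after seeing the data, gave 36.1, 42.4 and 32.1 points. Of all tiles 899 passed limma's test, 397 to 797 with a cow left out (469, 498, 397 and 488 without MSG replicates 1, 2, 3 and 6, and 447, 457 and 449 without MRG replicates 1, 2 and 5), and 213 passed the exact permutation test. Of all sites 0 passed, 0 to 74 with a cow left out (74 when MSG replicate 6 was dropped, 1 when MSG replicate 4 was), and 31207 of those with no cow at 0.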
